A study of Mus musculus with 6 samples.

Results

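The transcripts of insulin, AKT and mTOR signalling were followed in muscle of mice with and without estrogen receptor alpha in muscle. The set holds 31 genes, taken by symbol from the deposited table, out of 37477 Ensembl genes in all. Each of the 31 symbols matched 1 Ensembl gene, and all 31 passed the filter on low counts. RNA came from muscle labelled quadriceps of 20-week-old C57BL/6 mice, with 3 libraries from wild-type mice (WT) and 3 from MERKO mice, whose Esr1 gene was knocked out in muscle (KO here). The promoter that drives the knockout, the genotype of the control mice beyond wild type, their sex and their feeding state are not stated in the labels. Nor do they tie a library to an animal: p-values here cover only the spread between libraries, which may be technical.

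Insulin binds a receptor tyrosine kinase, which phosphorylates adaptor proteins that recruit PI3-kinase. PI3-kinase makes a membrane lipid that brings the kinases PDK1 and AKT together, and AKT then inhibits GSK3, releases the glucose transporter GLUT4 to the cell surface and relieves the brake that the TSC proteins put on mTOR. Skeletal muscle takes up much of the glucose cleared after a meal by this route, and mTOR couples it to protein synthesis. These steps run mostly through phosphorylation and protein traffic, which RNA counts do not measure.

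Total counts ran from 7388365 to 8560244 per library, and genes of the mitochondrial genome took 6.14% to 9.53% of them, the highest share in KO replicate 1. Esr1, the targeted gene, was at 5.96 ± 0.638 CPM (counts per 1000000 counts, TMM-scaled, SD, n = 3) in WT against 2.17 ± 0.374 in KO. The KO libraries lay below the WT libraries throughout, and the adjusted p was 0.145 in edgeR's quasi-likelihood test, against 0.000152 in the authors' deposited table. Skeletal muscle markers were abundant in all 6 libraries, while of the 3 heart markers Nppa and Tnni3 had 0 to 3 counts each and Myh6 16745 to 21046 counts. Slow and fast fibre genes were both abundant. In WT the 6 slow markers ran from 364 (Tnni1) to 2524 (Myh7) CPM per kb of exon. The 9 fast markers ran from 17.6 (Actn3) to 1971 (Tnnc2), with the myosin Myh1 at 529 and Myh4 at 50.4. The myosin Myh2, on neither list, was at 1454 CPM per kb in WT. Whether this mix of fibre genes is that of quadriceps, as labelled, was not tested. Summed fast-fibre markers (9 genes) were at 12419 to 13814 CPM in WT and 14322 to 15280 CPM in KO, which did not overlap. Of the 9, 8 were higher and 1 lower in KO. Groups did not overlap for 4 of them, 44.4% against 10.4% of all genes. Actn3 had the largest log2 difference, 1.38, and Pvalb the next, 0.87. In the authors' deposited table their adjusted p was 4.67e-11 and 3.71e-05, against 0.989 for both in edgeR's quasi-likelihood test. The sums of the 11 other marker lists, slow fibres included, overlapped between the groups. The part of fibre type in the results that follow was not tested. In whole muscle, fewer cells of a type and less RNA per cell cannot be told apart.

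The first question was whether any of the 31 transcripts differed between the genotypes. None passed: edgeR's quasi-likelihood test, at an adjusted p under 0.05, called 0 of the 31 in either direction, where 0.00% of the 13848 genes tested were called. The lowest adjusted p of the 31 was 0.989. At an unadjusted p under 0.05 there was 1, the insulin receptor gene Insr, where 4.26% of all genes reached that level. DESeq2 and limma voom also called 0 of the 31. In the table that the authors deposited, none of the 31 had an adjusted p under 0.05, where 0.0133% of all 37477 IDs did (5), and the lowest unadjusted p among them in the authors' deposited table was 0.101, again for Insr.

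The differences were small as well as uncalled. The log2 differences of KO from WT ran from -0.26 to 0.20, with a median size of 0.08 against 0.11 over all genes tested. The 95% interval stayed inside a 2-fold change in both directions for all 31 genes and inside a 1.5-fold change for 28, the exceptions being Irs2, Pik3cb and Txnip. Of the 31 genes, 21 were lower and 10 higher in KO, 67.7% lower against 50.7% of all genes, with a median log2 difference of -0.05 against -0.00. Direction also varied with gene length. Among the members, 19 belong to the longest 3306 of 13224 genes by exonic length (at least 6.69 kb), whose median log2 difference was likewise -0.05. The part of length in the members' direction was not tested.

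The groups did not overlap for 4 of the 31 genes, which is 12.9% against 10.4% of all genes. Eif4ebp1 was above WT in all KO libraries, 1 of the 31 where 4.96% of all genes were, and Gsk3a, Tsc1 and Rheb were below, 3 of the 31 where 5.45% were. These gaps were narrow, from 0.0862 CPM for Rheb to 0.639 CPM for Gsk3a, and the list changed with the scaling: Eif4ebp1 and Gsk3a stood apart under all 4 scalings tried, while Rheb and Tsc1 did so under 2 of them each and Insr under 1.

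**Figure D1:**
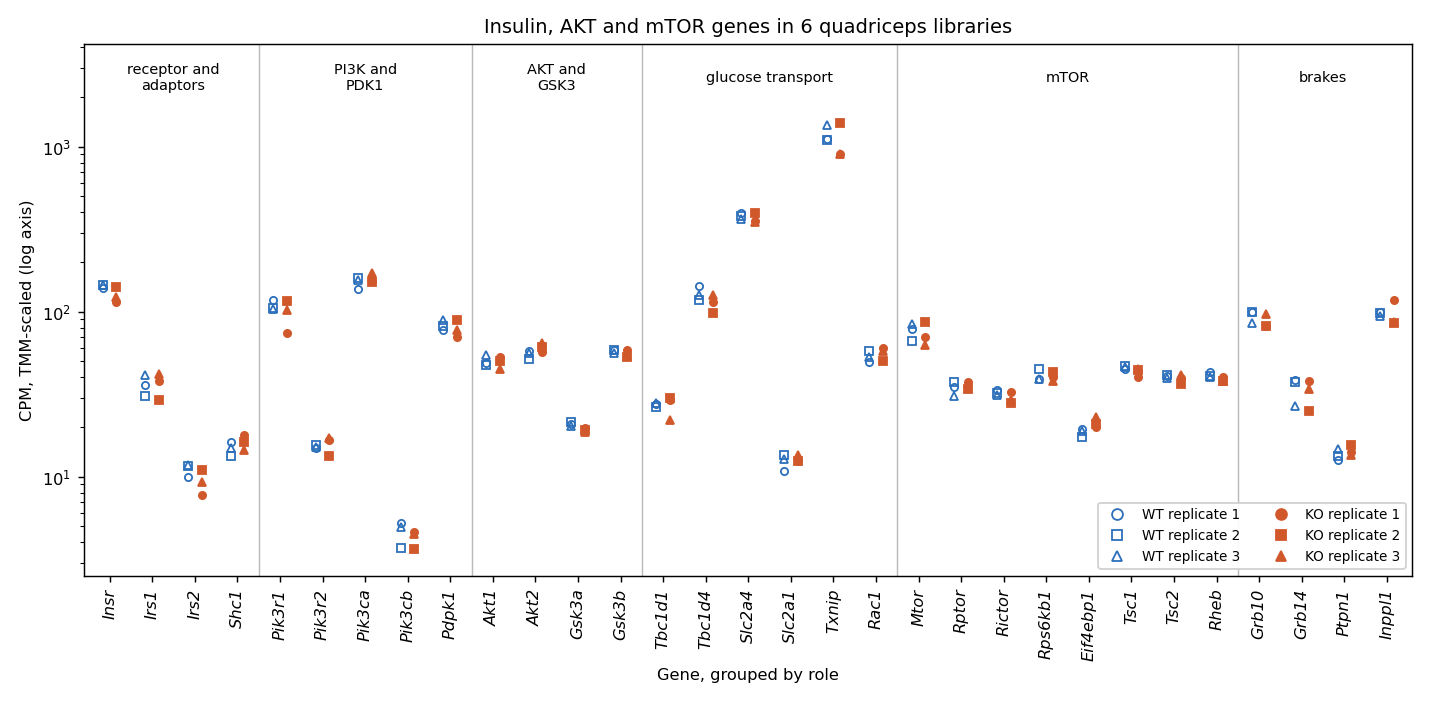
TMM-scaled CPM (log axis) of the 31 genes in each of the 6 libraries, with open blue symbols for WT, filled orange symbols for KO and 1 marker shape per replicate number. Txnip lies highest, at 900 to 1395 CPM, and Pik3cb lowest, at 3.62 to 5.22 CPM. WT and KO points are drawn side by side, and their ranges overlap for most genes.

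**Figure D2:**
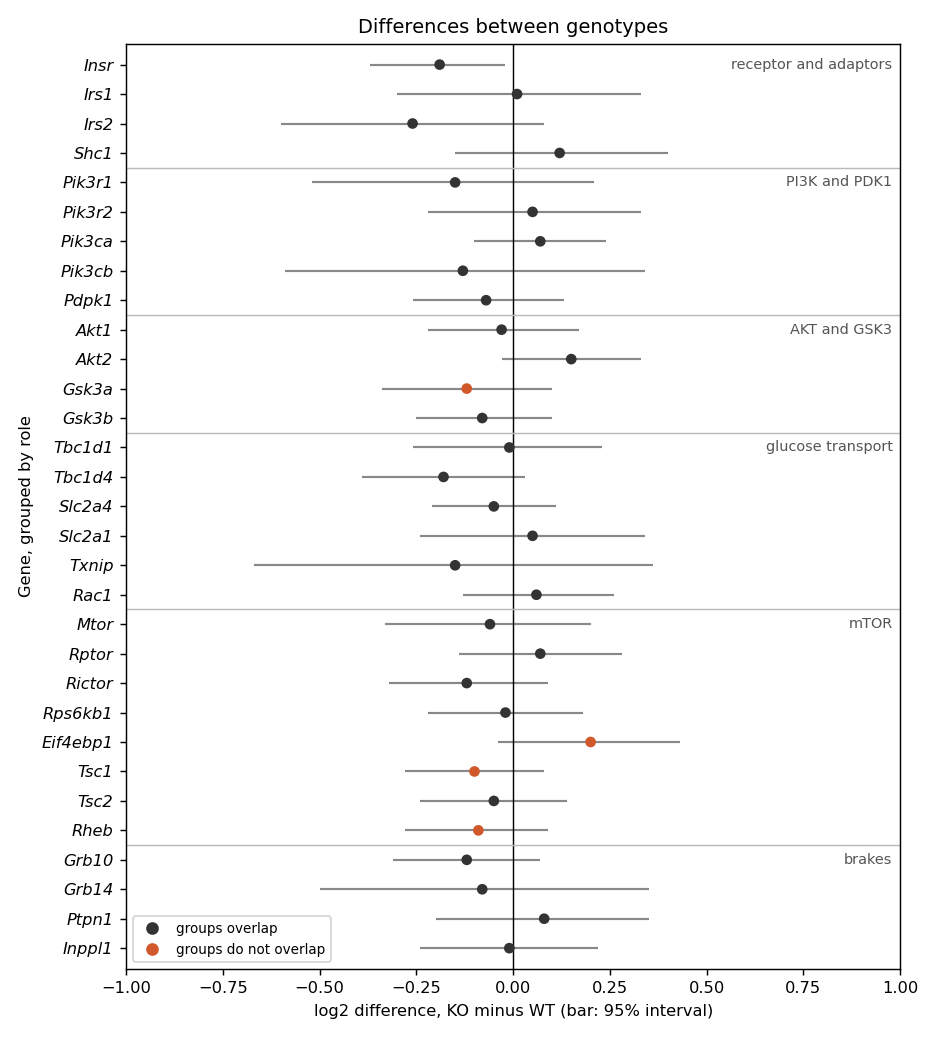
Log2 difference of KO from WT for each gene (point) with its 95% interval (bar), from edgeR's quasi-likelihood fit, where orange points mark the 4 genes whose groups do not overlap. All intervals lie between -1 and 1, and only that of Insr, from -0.37 to -0.02, leaves out 0.

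At the top of the pathway, Insr was the one gene whose interval left out no difference. Insr (ENSMUSG00000005534, chr8:3122061-3279617, minus strand, mm10) encodes the insulin receptor. It was at 140, 146 and 145 CPM in WT replicates 1, 2 and 3 and at 115, 141 and 122 CPM in KO replicates 1, 2 and 3. KO replicates 1 and 3 lay below the WT range, and KO replicate 2 reached just into it. The mean was 144 ± 3.24 CPM in WT against 126 ± 13.4 in KO (SD, n = 3), a log2 difference of -0.19 ± 0.08 (SE), or 0.875 times the WT level with a 95% interval from 0.775 to 0.987. The p was 0.032 before and 0.989 after adjustment in edgeR's quasi-likelihood test, so the difference did not pass. Its direction was the same in all 14 alternative analyses, with log2 differences from -0.28 to -0.13. These draw on the same 6 libraries, and the unadjusted p was under 0.05 in 7 of the 14. Insr has 13.7 kb of exon and so is among these longest genes.

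Irs1 and Irs2 encode the insulin receptor substrates, the adaptors that pass the signal from the receptor to PI3-kinase. Both promoters held the same pair of motifs in the 250 bases before the RefSeq start (GRCm38.p6): an E-box, CACGTG, and the insulin response sequence CAAAACA, read here as its reverse complement. They are shown because Irs2 is a textbook target of FOXO factors, which AKT keeps out of the nucleus, and because the motif pair is common to both adaptors. Capitals mark the motifs, each sequence runs 5′ to 3′ along the gene's strand, and both lie on the minus strand, at chr1:82291440-82291689 and chr8:11008930-11009179.
Irs1: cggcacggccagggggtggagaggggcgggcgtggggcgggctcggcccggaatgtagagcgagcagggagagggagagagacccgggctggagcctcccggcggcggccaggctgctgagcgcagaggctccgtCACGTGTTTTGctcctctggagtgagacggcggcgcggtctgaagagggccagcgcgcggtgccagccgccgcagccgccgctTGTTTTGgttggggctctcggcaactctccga
Irs2: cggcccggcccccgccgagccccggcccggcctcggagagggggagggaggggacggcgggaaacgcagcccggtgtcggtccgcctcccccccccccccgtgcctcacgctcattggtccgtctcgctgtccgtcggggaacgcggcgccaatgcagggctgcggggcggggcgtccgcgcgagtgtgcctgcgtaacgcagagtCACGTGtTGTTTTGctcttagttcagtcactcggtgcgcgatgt
In Irs1 the E-box and the response sequence overlap, from position -115 to -105 before the start, and the response sequence recurs at -32 to -26. In Irs2 they lie at -44 to -39 and -37 to -31. Of all 32851 promoter windows 6.02% held the E-box and 5.56% the response sequence, on either strand. Of the 37 windows of members, 3 held the E-box and 2 the response sequence. How many of all windows hold both was not counted. Among the 27 members with a window, Rheb was the other one with an E-box. The full estrogen response element, GGTCA and TGACC with 3 bases between them, was in 0 of the 37 windows of these 27 members and in 0.0639% of all windows. Insr, Slc2a4, Eif4ebp1 and Rac1 had no entry.

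Irs1 (chr1:82233101-82291416) was at 35.8, 30.6 and 41.5 CPM in WT replicates 1, 2 and 3 and at 38.1, 29 and 41.7 CPM in KO. The replicate numbered 2 was lowest in each group, and the group means were nearly equal (log2 difference 0.01 ± 0.14, SE). Of the exonic bases of Irs1, 30.9% are shared with Gm9747, so without strand its counts are uncertain. Irs2 (chr8:10984681-11008458) was at 10, 11.6 and 11.8 CPM in WT and at 7.69, 11 and 9.29 CPM in KO. It had the largest difference of the 31 genes, a log2 value of -0.26 ± 0.16 (SE), yet the groups overlapped and its adjusted p in edgeR's quasi-likelihood test was 0.989. Shc1, an adaptor that leads from the receptor towards the MAP kinases, differed by 0.12 ± 0.13.

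PI3-kinase joins a regulatory subunit, encoded by Pik3r1 or Pik3r2, to a catalytic subunit, encoded by Pik3ca or Pik3cb. Pik3r1 was at 118, 105 and 104 CPM in WT replicates 1, 2 and 3 and at 74, 116 and 103 CPM in KO. Here KO replicate 1 stood alone as the low library, and the log2 difference of -0.15 ± 0.16 (SE) turned to 0.01 without it. KO replicate 1 was also the library with the highest mitochondrial share, and whether the 2 are linked was not tested. Pik3ca was at 152 ± 12 CPM in WT against 159 ± 11.7 in KO (SD, n = 3), and Pik3r2 at 15.2 ± 0.293 and 15.8 ± 2.06 CPM. Pik3cb had the lowest counts of the set, 27 to 39 per library, and the widest interval of the PI3-kinase genes, from -0.59 to 0.34. Pdpk1, which encodes the AKT-activating kinase PDK1, differed by -0.07 ± 0.09.

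AKT1 and AKT2 are the kinases at the centre of the pathway, and AKT2 is the form tied most closely to glucose uptake. Akt1 (chr12:112653821-112674884) was at 48.8, 47.2 and 54.8 CPM in WT replicates 1, 2 and 3 and at 52.8, 50.4 and 44.9 CPM in KO. Akt2 (chr7:27591552-27640826) was at 57.7, 51.3 and 55.9 CPM in WT and at 56.8, 61.1 and 64.8 CPM in KO. For Akt2 only KO replicate 1 lay within the WT range, while 2 KO libraries of Akt1 did. The log2 difference was 0.15 ± 0.09 (SE) for Akt2 and -0.03 ± 0.09 for Akt1, and neither passed (adjusted p of 0.989 and 0.995 in edgeR's quasi-likelihood test). Gsk3a and Gsk3b encode the kinases that hold glycogen synthase inactive until AKT inhibits them. Gsk3a was at 20.9, 21.3 and 20.3 CPM in WT and at 19.6, 19.2 and 18.7 CPM in KO, so that no KO library reached the WT range, with a log2 difference of -0.12 ± 0.10 (adjusted p = 0.993). Its exons share 28.3% of their bases with 9130221H12Rik. Gsk3b was at 57.9 ± 1.43 CPM in WT against 55 ± 2.95 in KO (SD, n = 3).

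The genes of glucose transport included the most abundant transcripts of the set. Slc2a4 (chr11:69942539-69948188) encodes GLUT4, the transporter that insulin and contraction bring to the fibre surface. It was at 396, 379 and 366 CPM in WT replicates 1, 2 and 3 and at 354, 397 and 350 CPM in KO. KO replicates 1 and 3 lay below the WT values and KO replicate 2 above all of them. The log2 difference was -0.05 ± 0.08 (SE), and its 95% interval, from -0.21 to 0.11, bounds a change to between 0.863 and 1.08 times the WT level. Slc2a1, which encodes the ubiquitous transporter GLUT1, was at 10.8, 13.5 and 12.8 CPM in WT and at 12.4, 12.4 and 13.6 CPM in KO, with overlapping groups.

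TBC1D1 and TBC1D4 hold GLUT4 vesicles inside the cell until kinases such as AKT phosphorylate them. Tbc1d4 (chr14:101442360-101609191) was at 143, 117 and 127 CPM in WT replicates 1, 2 and 3 and at 115, 98.5 and 127 CPM in KO. The WT values lay higher on average, but KO replicate 3 equalled the middle of the WT values. The log2 difference was -0.18 ± 0.10 (SE), with a p of 0.0803 before and 0.989 after adjustment in edgeR's quasi-likelihood test. Tbc1d1 was at 27.5, 26.5 and 27.9 CPM in WT and at 29, 30.1 and 22 CPM in KO, where the KO libraries lay on both sides of the WT range. Rac1, a small GTPase of actin remodelling that helps move GLUT4, was at 53.7 ± 4.09 and 56.2 ± 5.04 CPM (SD, n = 3). Exons of Daglb overlap 51.4% of its exonic bases, which makes its counts uncertain.

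Txnip (chr3:96557957-96561883) encodes a thioredoxin-binding arrestin that limits glucose uptake and is induced by glucose. Its promoter is printed because it carries CACGAG, 5 bases and CACGAG again, a paired motif, of the kind that glucose-sensing factors are known to bind, and the FOXO site GTAAACA. The 250 bases before the RefSeq start lie at chr3:96557707-96557956 on the plus strand (GRCm38.p6), with both motifs in capitals.
Txnip: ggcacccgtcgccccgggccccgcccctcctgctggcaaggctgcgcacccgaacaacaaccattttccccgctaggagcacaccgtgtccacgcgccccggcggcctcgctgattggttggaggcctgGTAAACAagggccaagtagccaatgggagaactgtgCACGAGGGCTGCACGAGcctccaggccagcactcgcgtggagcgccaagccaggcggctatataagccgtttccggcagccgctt
The FOXO site spans positions -121 to -115 and the paired motif -85 to -69. The paired motif, spelled after the sequence was seen, was in 1 of the 32851 windows, which is this one, and the FOXO site in 3.17% of all windows and in Akt1 besides Txnip among the members.

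Txnip was at 1115, 1092 and 1349 CPM in WT replicates 1, 2 and 3 and at 902, 1395 and 900 CPM in KO. KO replicates 1 and 3 lay below all WT libraries, and KO replicate 2 was the highest of all 6. The log2 difference was -0.15 ± 0.21 (SE), with an interval from -0.67 to 0.36, the widest of the 31 genes. Without KO replicate 2 the log2 difference was -0.39, with a p of 0.000695 before and 0.326 after adjustment in edgeR's quasi-likelihood test, so it did not pass there either. Over the 14 alternatives for Txnip the log2 difference ran from -0.39 to -0.05. Only 1 of them had an unadjusted p under 0.05, the one that leaves out this highest library, KO replicate 2.

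High values in WT replicate 3 and KO replicate 2 were seen for Pdk4 as well but not for Hk2, which was lowest in WT replicate 3 among the WT libraries. Which genes to set beside Txnip, and Fbxo32 itself, was chosen after the values were seen. Pdk4, which encodes the kinase that shuts pyruvate out of the mitochondrion and falls with insulin, was at 1974, 1943 and 2534 CPM in WT replicates 1, 2 and 3 and at 1403, 2442 and 1742 CPM in KO. Its 2 highest libraries were thus those of Txnip. The same 2 libraries, WT replicate 3 and KO replicate 2, were also highest for the members Mtor (84.4 and 86.1 CPM) and Pdpk1 (88.6 and 88.7 CPM). Grb14 showed the reverse, with 38.3, 37.2 and 26.9 CPM in WT and 38, 24.9 and 34 CPM in KO, and so did Fbxo32, an atrophy ligase under FOXO control, with 275, 265 and 205 CPM in WT and 247, 192 and 227 CPM in KO. Summed red-cell genes were at 1009, 1730 and 1512 CPM in WT and at 814, 1706 and 694 CPM in KO, high in KO replicate 2 but also in WT replicate 2, and their part in the Txnip values was not tested. Txnip overlaps the gene Gm15441 over 19.4% of its exonic bases, and Gm15441 followed the same order of extremes, at 311, 279 and 355 CPM in WT and 235, 358 and 233 CPM in KO.

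**Figure D3:**
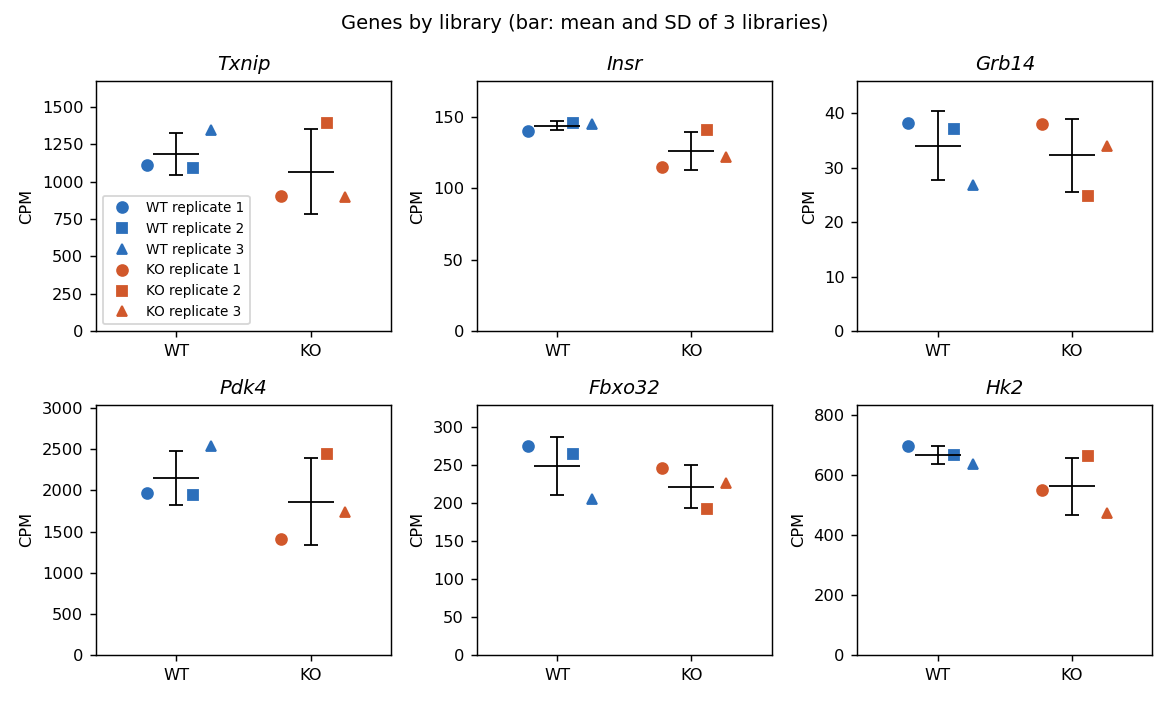
CPM of 6 genes in each library, with symbols by replicate number and bars for the mean and SD of 3 libraries, on axes that start at 0. WT replicate 3 and KO replicate 2 are highest for Txnip (1349 and 1395 CPM) and Pdk4 and lowest for Grb14 and Fbxo32, while for Insr and Hk2 KO replicates 1 and 3 lie below the WT values.

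The mTOR kinase forms 2 complexes, mTORC1 with RAPTOR, which drives translation, and mTORC2 with RICTOR, which completes the activation of AKT. Mtor (chr4:148448611-148557683) was at 79, 66 and 84.4 CPM in WT replicates 1, 2 and 3 and at 70.4, 86.1 and 63.1 CPM in KO. Rptor was at 35.1, 37.5 and 30.6 CPM in WT and at 37.7, 33.8 and 36.5 CPM in KO. Rictor was at 33.5, 32.3 and 31.2 CPM in WT and at 32.4, 27.8 and 29.2 CPM in KO. The groups overlapped for all 3 genes, with log2 differences of -0.06 for Mtor, 0.07 for Rptor and -0.12 for Rictor, and standard errors of 0.10 to 0.12.

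Upstream of mTORC1 sit the TSC proteins, which switch off the small GTPase RHEB, the direct activator of the complex. Tsc1 (chr2:28641228-28691167) was at 44.9, 46.9 and 46.5 CPM in WT replicates 1, 2 and 3 and at 40.2, 44.1 and 44.7 CPM in KO. Rheb (chr5:24802823-24842624) was at 43, 41 and 40.4 CPM in WT and at 40.4, 38.1 and 38.1 CPM in KO. For both genes the KO values lay below the WT values, by a gap of 0.177 CPM for Tsc1 and 0.0862 CPM for Rheb. The log2 differences, -0.10 ± 0.09 and -0.09 ± 0.09 (SE), each had an adjusted p of 0.993 in edgeR's quasi-likelihood test. Tsc2 was at 40.5 ± 0.956 and 39.2 ± 2.35 CPM (SD, n = 3), and Pkd1 covers 7.2% of its exonic bases.

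Among the substrates of mTORC1, Eif4ebp1 stood apart between the genotypes and Rps6kb1 did not. Eif4ebp1 (chr8:27260329-27276674) encodes 4E-BP1, which blocks cap-dependent translation until mTORC1 phosphorylates it. It was at 19.4, 17.4 and 18.9 CPM in WT replicates 1, 2 and 3 and at 19.9, 20.9 and 23 CPM in KO, 127 to 186 counts per library. All KO libraries lay above all WT libraries, the closest by 0.458 CPM. The log2 difference of 0.20 ± 0.11 (SE) was the highest of the 31 genes but did not pass, with a p of 0.0953 before and 0.989 after adjustment in edgeR's quasi-likelihood test. With 2.20 kb of exon, Eif4ebp1 is the 1 member among the shortest 3306 genes, whose median log2 difference was 0.04. Rps6kb1, which encodes the S6 kinase, was at 39.1, 44.6 and 38.9 CPM in WT and at 40.1, 43 and 37.8 CPM in KO.

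The genes that restrain the insulin signal showed no separation between the genotypes. GRB10 and GRB14 bind and inhibit the insulin receptor, PTPN1 removes its phosphates, and INPPL1 degrades the lipid product of PI3-kinase. Grb10 (chr11:11930508-12038683) was at 99.7, 98.9 and 85.1 CPM in WT replicates 1, 2 and 3 and at 81.5, 82.4 and 96.9 CPM in KO, where WT replicate 3 and KO replicate 3 crossed over. Ptpn1 was at 12.6, 13.3 and 14.8 CPM in WT and at 14.0, 15.5 and 13.5 CPM in KO. The log2 difference was -0.12 ± 0.09 (SE) for Grb10, -0.08 ± 0.18 for Grb14 and 0.08 ± 0.13 for Ptpn1. Inppl1 was at 96.9 ± 2.92 CPM in WT against 96.2 ± 17.6 in KO (SD, n = 3), the KO spread coming from replicate 1 at 117 CPM. Other genes cover 20.3% of its exonic bases.

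Levels were then compared between genes per length of exon. Txnip was the highest of the set at 360 CPM per kb, the mean of 6 libraries, and Slc2a4 the next at 107 CPM per kb. Neither overlapped with its neighbour in the order in any library. After them the levels ran on closely, from 17.1 CPM per kb for Pik3ca to 2.52 for Ptpn1, where neighbours overlapped at every step but that from Gsk3a to Gsk3b and the last, below Ptpn1. Irs2 at 1.62 and Pik3cb at 0.615 CPM per kb closed the order. Per length of the longest transcript these 4 ends of the order, Txnip, Slc2a4, Irs2 and Pik3cb, kept their ranks. Between them ranks moved, for instance from 3 to 7 for Pik3ca and from 19 to 12 for Grb14. Txnip alone supplied 32.6% to 42.6% of the summed CPM of the 31 genes. The full sum was at 3068, 3009 and 3255 CPM in WT replicates 1, 2 and 3. In KO it was at 2728, 3276 and 2760 CPM, so the groups overlapped. Without Txnip the sum was 1906 to 1953 CPM in WT and 1827 to 1881 CPM in KO, which did not overlap. Of all single genes, 10.4% had groups that did not overlap. The sums were not among the results set beforehand, and no test was run on either. The part of gene length in them was not tested.

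In all, 10 gene pairs were set against each other within each library, since a ratio within a library does not depend on scaling. GLUT4 dominated GLUT1: Slc2a4 had 31.3 ± 4.79 times the counts per exonic length of Slc2a1 in WT, and 28.9 ± 3.16 in KO (SD, n = 3). Pik3ca similarly stood 26.8 ± 7.03 and 30 ± 3.29 times above Pik3cb. Tbc1d4 was 4.55 ± 0.403 and 4.18 ± 1.24 times as high as Tbc1d1, and Irs1 2.24 ± 0.361 and 2.79 ± 0.848 times as high as Irs2. Akt2 was below Akt1 per length, at a ratio of 0.631 ± 0.0472 in WT and 0.715 ± 0.106 in KO. In raw counts that order turned, with 1.1 times as many Akt2 as Akt1 counts in WT, so it rests on the exonic lengths. Gsk3b likewise had 0.82 times the level of Gsk3a per length but 2.78 times its counts in WT, and Tsc1 0.925 times that of Tsc2 but 1.14 times its counts.

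No pair shifted its balance past the test. Of the 10 ratios, 1 had groups that did not overlap: Rptor to Rictor, at 1.32, 1.46 and 1.23 in WT replicates 1, 2 and 3 and at 1.46, 1.53 and 1.57 in KO. WT replicate 2 and KO replicate 1 were nearly equal, and the means were 1.34 ± 0.115 in WT and 1.52 ± 0.0544 in KO (SD, n = 3), a log2 difference of 0.19. Its exact two-sided permutation p of 0.1 is the smallest that 3 against 3 libraries allow, and adjusted over the 10 ratios it was 0.667. The other 9 ratios had exact p-values from 0.3 to 1. Irs1 to Irs2 had the largest log2 difference, 0.28, and its KO libraries ranged from 1.82 to 3.43.

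**Figure D4:**
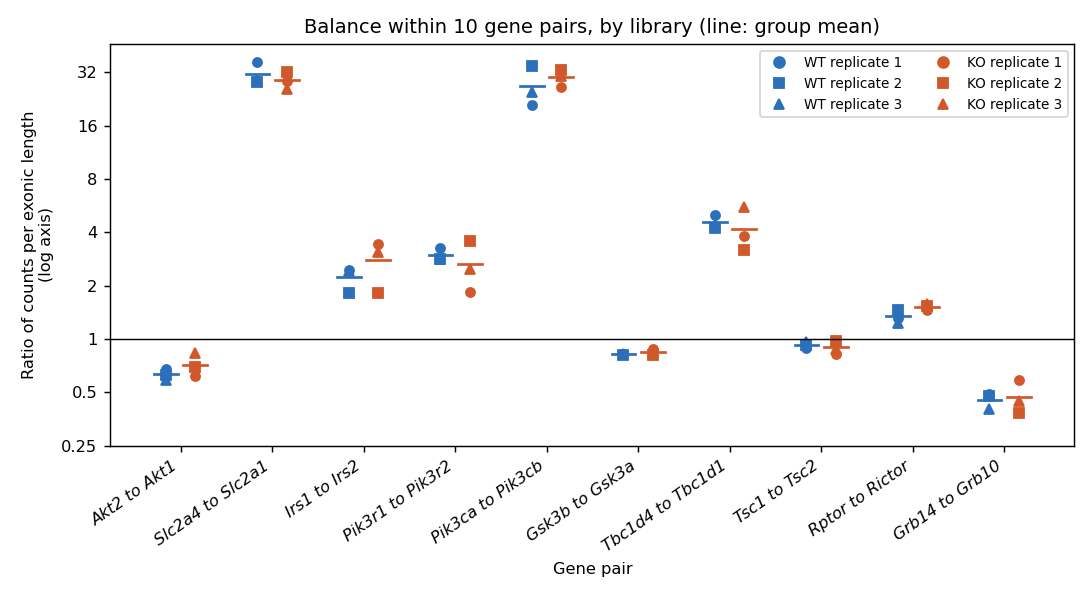
Ratio of counts per exonic length (log axis) for 10 gene pairs in each library, with horizontal lines for the group means and a black line at equal levels. Slc2a4 to Slc2a1 and Pik3ca to Pik3cb lie between 20.9 and 36.8, the other pairs between 0.382 and 5.56. The ranges of WT and KO overlap for all pairs but Rptor to Rictor.

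Other genes of the pathway were read from a list of 101, of which 95 passed the filter on low counts. None of the 95 passed: edgeR's quasi-likelihood test called 0 in either direction, where 0.00% of all genes were called, and 9 had an unadjusted p under 0.05, 3 higher and 6 lower, where 4.26% of all genes did. Groups did not overlap for 14 of the 95, 14.7% against 10.4% of all genes. Of the 95, 40 were higher and 55 lower, and their log2 differences had a median of -0.04. DESeq2 and limma voom called 0 of them too.

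In the lysosomal arm that senses amino acids for mTORC1, 4 of the 5 Ragulator scaffold genes had positive log2 differences, though none passed, while Lamtor3 was at -0.12. Of all genes, 50.7% were lower. The Ragulator genes were not a group set beforehand. Lamtor2, Lamtor4 and Lamtor5 have 1.22, 1.3 and 0.884 kb of exon and so are among the shortest 3306 genes, whose median log2 difference was 0.04. The part of length here was not tested. Lamtor1, which anchors Ragulator to the lysosome, was at 28.5, 29.9 and 26.4 CPM in WT replicates 1, 2 and 3 and at 35.5, 32.9 and 39.2 CPM in KO. Its log2 difference of 0.34 ± 0.10 (SE) had the lowest p of the list, and an adjusted p of 0.989 in edgeR's quasi-likelihood test. Lamtor4, another Ragulator subunit, was at 15.6 ± 1.40 CPM in WT against 19.4 ± 2.13 in KO (SD, n = 3), with no overlap between the groups. The list that holds them, of mTOR complex, amino-acid sensing and stress genes, had 29 genes tested, of which 19 were higher and 10 lower, and the median was 0.05.

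The translation outputs and the vesicle machinery had members on both sides. Eef2k, the kinase that slows elongation, was at 38.3 ± 4.16 CPM in WT against 31 ± 3.82 in KO, and Rps6kb2, the second S6 kinase gene, at 11.9 ± 1.44 and 9.19 ± 0.276 CPM (SD, n = 3). Vamp2, a vesicle SNARE of GLUT4 fusion, had only 25 to 43 counts per library and was at 5.02 ± 0.374 CPM in WT against 3.38 ± 0.287 in KO. Exoc7, of the exocyst that tethers GLUT4 vesicles, was at 25.4 ± 1.69 and 30.2 ± 1.06 CPM. Each had groups standing apart except Eef2k, where KO replicate 2 overlapped WT replicate 3, and each had an adjusted p of 0.989 in edgeR's quasi-likelihood test.

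Near the receptor and PI3-kinase no gene passed either. Cblb, a ubiquitin ligase that restrains receptor signalling, was at 14.5 ± 1.15 CPM in WT against 11 ± 2.89 in KO, and Sos1, the exchange factor for RAS, at 20.8 ± 1.98 and 18.1 ± 2.49 CPM (SD, n = 3). The lipid phosphatases Inpp5k and Inpp5d differed by -0.16 ± 0.09 and -0.29 ± 0.21 (SE), and the groups of Inpp5k, at 28.3 to 28.6 CPM in WT against 25.3 to 25.4 in KO, did not overlap. The subunits of the phosphatase PP2A that can act on AKT, Ppp2ca and Ppp2r1a, differed by -0.11 ± 0.09 and 0.09 ± 0.08.

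Transcripts known to be set by insulin or FOXO factors formed a group of 11. Of these, 9 were lower in KO, 81.8% against 50.7% of all genes. The test called 0 of them, and the median of their log2 differences was -0.16. Ppargc1a had the largest difference, -0.56 ± 0.27 (SE), with a 95% interval from -1.25 to 0.12. It was at 77.3 ± 1.64 CPM in WT against 52.2 ± 17.2 in KO (SD, n = 3). Only its groups, among the 11, did not overlap, 9.09% against 10.4% of all genes. Hk2, the hexokinase that traps glucose in the fibre and is induced by insulin, was at 694, 664 and 634 CPM in WT replicates 1, 2 and 3 and at 549, 663 and 474 CPM in KO. KO replicate 2 lay within the WT range and the other KO libraries below it, as for Insr. The log2 difference was -0.24 ± 0.10 (SE), with a 95% interval from -0.46 to -0.02 and an adjusted p of 0.989 in edgeR's quasi-likelihood test. Trim63, an atrophy ligase that FOXO factors induce, was at 179 ± 33.5 CPM in WT against 145 ± 17.3 in KO (SD, n = 3), and Pdk4 at 2151 ± 333 and 1862 ± 530 CPM. Insulin is known to raise Hk2 and to lower Pdk4. The KO mean was the lower one for both, but the groups overlapped for both. The 95% interval of the log2 difference of Pdk4 ran from -0.84 to 0.42. The part of insulin in these values was not tested.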

How the data were processed

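Genome mm10 and the tools TopHat 1.3.3 and edgeR are named, without their roles, per the submitters' processing notes. How reads were counted, and on which annotation, is not known here. Libraries were made with Illumina's TruSeq RNA kit, per the labels' protocols, a kit that does not mark strand. The authors deposited whole-number counts per Ensembl gene, with their own log2 fold change, log2 mean abundance, p-value and adjusted p-value per gene. Of 37506 rows, 29 repeated an Ensembl ID with the same counts and were merged.

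From these counts, edgeR 4.0.16 (R 4.3.3) was run with filterByExpr, which kept 13848 genes, TMM scaling and the robust quasi-likelihood F-test on genotype, two-sided, with Benjamini-Hochberg adjustment over all genes and a threshold of 0.05. The SE is the log2 difference over the square root of F. Exonic lengths and coordinates are those of GENCODE M21 (GRCm38, the assembly of mm10), which held all 31 members. Promoter sequences are RefSeq's (GRCm38.p6), matched by symbol for 27 of 31. CPM per kb divides TMM-scaled CPM by the union of exons. The ratios of gene pairs were compared by exact permutation tests.

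Replicates of a group differed beyond sampling noise (chi-square per gene of 3.46 to 9.57), and all 6 were counted separately. Alternatives were other scalings and filters, DESeq2 1.42.0, limma voom (limma 3.58.1), a replicate block and leaving out each library. Overlap of groups under other scalings was added after seeing the data. Per-library values were given for members with an unadjusted p under 0.05 or no overlap and for a set list of central genes, and of the other pathway genes for Hk2, Pdk4 and up to 2 per role with the smallest p; some genes that this rule names are not reported here. The members and lists were chosen with earlier results of these data known.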

Additional observations from a re-analysis of the deposited data

How the results depend on the processing

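In every alternative run, 0 of the 31 genes and 0 of the other pathway genes were called, and the lowest adjusted p of any of the 31 was 0.326, for Txnip without KO replicate 2. Over all genes, where the edgeR test called 0, 19 were called without the filter on low counts, 3 by DESeq2, 1 by limma voom and 0 to 3 with 1 library left out; the 3 came without WT replicate 1. The cause was not tested. The number of the 31 genes that were lower in KO, 21, stayed between 18 and 21. Direction held in all 14 alternatives for 19 of the 31 genes and turned for 12. Without scaling Inppl1 turned to 0.005 and Tbc1d1 to 0.00025, and Inppl1 turned to 0.00055 without the filter. With 1 library left out the log2 differences ran from -0.08 to 0.04 for Akt1, from -0.22 to 0.08 for Grb14, from -0.17 to 0.07 for Inppl1, from -0.10 to 0.15 for Irs1, from -0.19 to 0.03 for Mtor, from -0.16 to 0.0079 for Pdpk1, from -0.30 to 0.01 for Pik3r1, from -0.01 to 0.16 for Pik3r2, from -0.07 to 0.05 for Rps6kb1, from -0.01 to 0.13 for Rptor, from -0.04 to 0.11 for Slc2a1 and from -0.09 to 0.11 for Tbc1d1. Of the ratios, Grb14 to Grb10 ran from -0.13 to 0.18, Pik3r1 to Pik3r2 from -0.47 to 0.01, Slc2a4 to Slc2a1 from -0.19 to 0.01, Tbc1d4 to Tbc1d1 from -0.39 to 0.02 and Tsc1 to Tsc2 from -0.12 to 0.01. The number of ratios whose groups did not overlap, 1, ran from 1 to 5, the 5 without KO replicate 2; leaving out WT replicate 2, or either of the KO replicates 1 and 3, gave 2. Fewer libraries overlap less often by construction.

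With the replicate number as a block, 0 of the 31 genes and 0 of all genes were called. Whether the numbers pair the samples cannot be told from the correlations between libraries. Libraries of the same number correlated in their deviations from the group means by -0.0146, 0.159 and 0.0377. The value for the replicates numbered 2, 0.159, was the highest of any WT and KO pair, while WT replicate 3 went best with KO replicate 1 (0.141). Depth limits the low genes most: Pik3cb, at 27 to 39 counts, had an interval that allows from 0.662 to 1.26 times the WT level.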

Other observations

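Among the other pathway genes, some varied widely between libraries of the same genotype. Ddit4, which encodes REDD1, an inhibitor of mTORC1 induced by stress and glucocorticoids, was at 6.56, 21.2 and 2.92 CPM in WT replicates 1, 2 and 3 and at 4.02, 20.3 and 7.31 CPM in KO. Sgk1, a kinase related to AKT and induced by glucocorticoids, followed it with 61.3, 102 and 26.4 CPM in WT and 38.6, 107 and 45.6 CPM in KO. The replicate numbered 2 was highest in both groups for both genes, and also for Sesn1, an mTORC1 inhibitor of the sestrin family (87.9 and 88.1 CPM), and for the transcription factor gene Foxo1 (8.48 and 10.3 CPM). These 4 genes were chosen after their values were seen, and Ddit4l, which encodes the related protein REDD2, did not share the pattern, with 11.3, 13.1 and 7.35 CPM in WT and 25.2, 8.22 and 15.4 CPM in KO (log2 difference 0.63 ± 0.50, SE). The log2 differences of the 4 between genotypes lay between -0.12 and 0.06, while the highest library held 7.27 times the lowest for Ddit4 and 4.06 times for Sgk1. Of the 31 genes, by contrast, Pik3r1 varied most over the 6 libraries, by 1.59 times, and Gsk3b least, by 1.11 times. The labels give no time of day, feeding state or collection order, so what these libraries share is not known.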
